A study of Homo sapiens with 21 samples.

Results

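The effect of a PGP knockout on the resting transcriptome of MV4-11 cells was measured by comparing PGP knockout cells with wild type cells, both given the solvent DMSO. MV4-11 is an established human line of acute leukaemia with a myelomonocytic and partly B-lymphoid character. The members were chosen by genotype and treatment alone and came to 6 of the 21 libraries of the series: 3 of the CRISPR knockout of PGP in DMSO and 3 of wild type in DMSO. Beside them, the report uses 3 PGP knockout and 3 wild type libraries after 24 h of ironomycin (AM5), and 3 libraries of a CRISPR knockout of HK2 in DMSO. The joint fit over all 21 libraries also holds 3 HK2 knockout libraries at 24 h and 3 wild type libraries at 6 h of ironomycin. All libraries came from 1 cell line grown in the same medium and were made from total RNA with a kit that counts the 3′ ends of transcripts. The guides, the edited sites, whether a knockout was 1 clone or a pool, and the time spent in DMSO are not given in the sources used here, so clonal differences and the knockout itself cannot be told apart. Whether replicates were grown as separate cultures is not stated, so each p-value reflects the spread among these libraries, which may be technical.

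PGP encodes phosphoglycolate phosphatase, an enzyme that clears phosphorylated side products of glycolysis, among them phosphoglycolate, phosphoerythronate and phospholactate. Those metabolites are known to inhibit enzymes of glycolysis and of the pentose phosphate pathway, and the enzyme can also act on glycerol phosphate. HK2 encodes hexokinase 2, which phosphorylates glucose at the entry to glycolysis, so the HK2 knockout offers a second edited line of the same parent.

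Total counts lay between 3829274 and 4897649 in the 3 PGP knockout libraries, and between 4823817 and 6069264 in the 3 wild type libraries. Levels are given as CPM, counts divided by the TMM-adjusted library size, and a floor of 3 counts lay between 0.498 and 0.803 CPM in these libraries. The TMM scaling factors were 0.958 to 0.979 in the PGP knockout and 0.992 to 0.996 in wild type, and 15563 to 16572 genes had at least 1 count. The first principal component of the 6 libraries held 28.6% of the variance. It placed PGP knockout replicates 2 and 3 at 28 and 18.6, but put PGP knockout replicate 1 at -9.57, between the wild type libraries at -5.03, -11.9 and -20.2. Among markers of the myeloid lineage, PRTN3, a serine protease of neutrophil granules, and FLT3, a growth factor receptor of progenitors, averaged 645.8 and 222.3 CPM in the PGP knockout and 709.7 and 286.7 CPM in wild type. B-lymphoid markers were sparse: 6 of 18 had no count in the 6 libraries, including MS4A1 and CD79B, and the list summed to 36.4 to 65.2 CPM in the PGP knockout against 29.9 to 57.2 CPM in wild type. The B-lymphoid part of the line's description was thus carried by few transcripts here.

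No gene passed the test for a basal effect of the PGP knockout. Of 11610 genes tested with edgeR's quasi-likelihood test, 0 had a Benjamini-Hochberg adjusted p under 0.05 (0%), and the smallest adjusted p was 0.269. Without adjustment, 648 genes had a p under 0.05 (5.58%), 353 with a higher value in the PGP knockout (3.04%) and 295 with a lower one (2.54%). That count was 1125 of 10813 with the 9 DMSO libraries, 943 of 10526 with the 6 alone, and 402 to 911 with 1 of the 6 left out. It was 984 of 11795 without wild type replicate 2 at 6 h of ironomycin. That library deviated from its group with an SD of 0.675, against 0.332 to 0.48 in the other 20. The cause of these shifts was not tested. The 3 PGP knockout libraries lay above all 3 wild type libraries for 746 genes (6.43%) and below all 3 for 776 genes (6.68%). The median standard error of a log2 difference was 0.203, and 249 genes had a difference of more than 1 on the log2 scale in either direction. DESeq2 on the same 21 libraries called 5 genes: SYNGR1, GSG1 and CCDC88B higher, DNAJC15 and RGS16 lower. Counts of calls depended on the fit: 2 with the 6 libraries alone, 5 with the 9 DMSO libraries (TNFSF13B higher; GAPDHP1, VAT1L, DNAJC15 and RGS16 lower), and 96 with no filter on low counts. Of those 96 genes, 91 had passed the filter and were among the 11610 tested. Differences below are therefore given as log2 values of PGP knockout over wild type ± SE, with n = 3 libraries per group, and none is a call unless so named.

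PGP itself was slightly lower in the PGP knockout. PGP (ENSG00000184207, chromosome 16) stood at 71.7, 71.0 and 83.6 CPM in the PGP knockout libraries, against 89.4, 86.8 and 95.5 CPM in wild type. The libraries did not overlap, and the difference was -0.26 ± 0.12 (edgeR adjusted p = 0.879). At 24 h of ironomycin PGP was at 63.0, 63.0 and 53.2 CPM in the PGP knockout against 82.0, 81.3 and 72.9 CPM in wild type (-0.40 ± 0.12, edgeR adjusted p = 0.722), again without overlap. In the HK2 knockout in DMSO it stood at 95.8, 86.4 and 103 CPM, and the PGP knockout differed from that line by -0.33 ± 0.12 (edgeR adjusted p = 0.467). A 3′ tag need not change with an edit elsewhere in the gene, so these levels do not check the knockout. PDXP, the pyridoxal phosphate phosphatase that is the nearest relative of PGP, had 0 counts in the PGP knockout libraries and 1 count over the wild type libraries in DMSO. It was too low to test. HK2 was at 45.2, 36.1 and 48.1 CPM in the PGP knockout and at 45.9, 42.4 and 69.5 CPM in wild type (-0.29 ± 0.27, edgeR adjusted p = 0.909), and the groups overlapped.

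The genes beside PGP on its chromosome lay near the median of all genes. Of the 20 protein coding genes nearest to it in the RefSeq order, 11 could be tested, and their median difference was 0.07, against 0.01 over all genes. E4F1, a zinc finger repressor that lies next to PGP, averaged 5.95 ± 0.605 CPM in the PGP knockout and 8.62 ± 1.38 CPM in wild type (SD, n = 3), a difference of -0.54 ± 0.25 (edgeR adjusted p = 0.879) without overlap. It was the 1 member of 11 with an unadjusted p under 0.05, against 5.58% of all genes. At 24 h its difference was 0.00. Over whole chromosomes, medians ran between -0.08 on chromosome 13 and 0.07 on chromosome 19.

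The 6 genes with the smallest p among those higher in the PGP knockout were SYNGR1, GSG1, CCDC88B, a long intergenic noncoding RNA, RTN4R and YPEL5. SYNGR1, a membrane protein of synaptic vesicles, stood at 28.4, 23.4 and 25.02 CPM in the PGP knockout libraries, against 11.1, 15.7 and 11.1 CPM in wild type (1.02 ± 0.20, edgeR adjusted p = 0.269). Every PGP knockout library lay well above the highest wild type one. GSG1, a germ cell protein, had 6.42, 14.9 and 11.4 CPM in the PGP knockout and 2.92, 5.01 and 1.66 CPM in wild type (1.81 ± 0.36, edgeR adjusted p = 0.269). The groups stood apart, but PGP knockout replicate 1 came close to wild type replicate 2. CCDC88B, a coiled-coil protein of immune cells, was at 12.3, 15.3 and 13.6 CPM in the PGP knockout and at 4.39, 7.93 and 7.13 CPM in wild type (1.08 ± 0.23, edgeR adjusted p = 0.294). The noncoding RNA ENSG00000225172 was at 14.7, 14.2 and 15.8 CPM in the PGP knockout and at 6.89, 8.56 and 7.80 CPM in wild type (0.94 ± 0.21, edgeR adjusted p = 0.317). For both, the lowest PGP knockout library exceeded the highest wild type library by more than the range within either group. RTN4R, the Nogo receptor, averaged 6.57 ± 0.72 CPM in the PGP knockout and 2.57 ± 0.53 CPM in wild type (1.35 ± 0.31), and YPEL5, a protein bound to a ubiquitin ligase complex, averaged 12.6 ± 1.66 CPM in the PGP knockout and 7.61 ± 1.26 CPM in wild type (0.72 ± 0.17). Their edgeR adjusted p were 0.423 and 0.526.

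Among genes lower in the PGP knockout, those with the smallest p were DNAJC15, RGS16, NUP35, TOX, CCL2 and PHF14. DNAJC15, an inner mitochondrial membrane co-chaperone known to restrain respiratory complex I, had 9.90, 7.44 and 7.46 CPM in the PGP knockout libraries, against 16.3, 16.9 and 19.1 CPM in wild type (-1.09 ± 0.23, edgeR adjusted p = 0.294). All 3 PGP knockout values lay far below the lowest wild type one. RGS16, which shortens signalling by G proteins, stood at 37.2, 30.0 and 29.6 CPM in the PGP knockout and at 58.9, 47.8 and 69.5 CPM in wild type (-0.87 ± 0.19, edgeR adjusted p = 0.294). CCL2, a chemokine that attracts monocytes, was at 1.07, 0.85 and 0.22 CPM in the PGP knockout and at 5.22, 2.92 and 9.79 CPM in wild type (-3.09 ± 0.78, edgeR adjusted p = 0.551). The CCL2 values of the PGP knockout were near the limit of 3 counts, and the wild type libraries themselves spread widely. TOX, a nuclear factor of lymphocyte development, was equally sparse, with 0.80, 0.85 and 0.66 CPM in the PGP knockout and 5.43, 1.67 and 4.48 CPM in wild type (-2.30 ± 0.56, edgeR adjusted p = 0.526). NUP35, a nuclear pore protein, averaged 12.8 ± 1.37 CPM in the PGP knockout and 20.3 ± 3.38 CPM in wild type (-0.67 ± 0.16, edgeR adjusted p = 0.526). PHF14, a chromatin reader with a PHD finger, was the most abundant of the 12, with 154, 145 and 138 CPM in the PGP knockout and 194, 195 and 217 CPM in wild type (-0.47 ± 0.12, edgeR adjusted p = 0.551). No 2 libraries of different genotype overlapped for any of these 6 genes. All 12 genes, higher and lower, were chosen by p in these same libraries, so their lack of overlap is no separate result. Over all genes 6.43% stood apart upward and 6.68% downward.

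**Figure D1:**
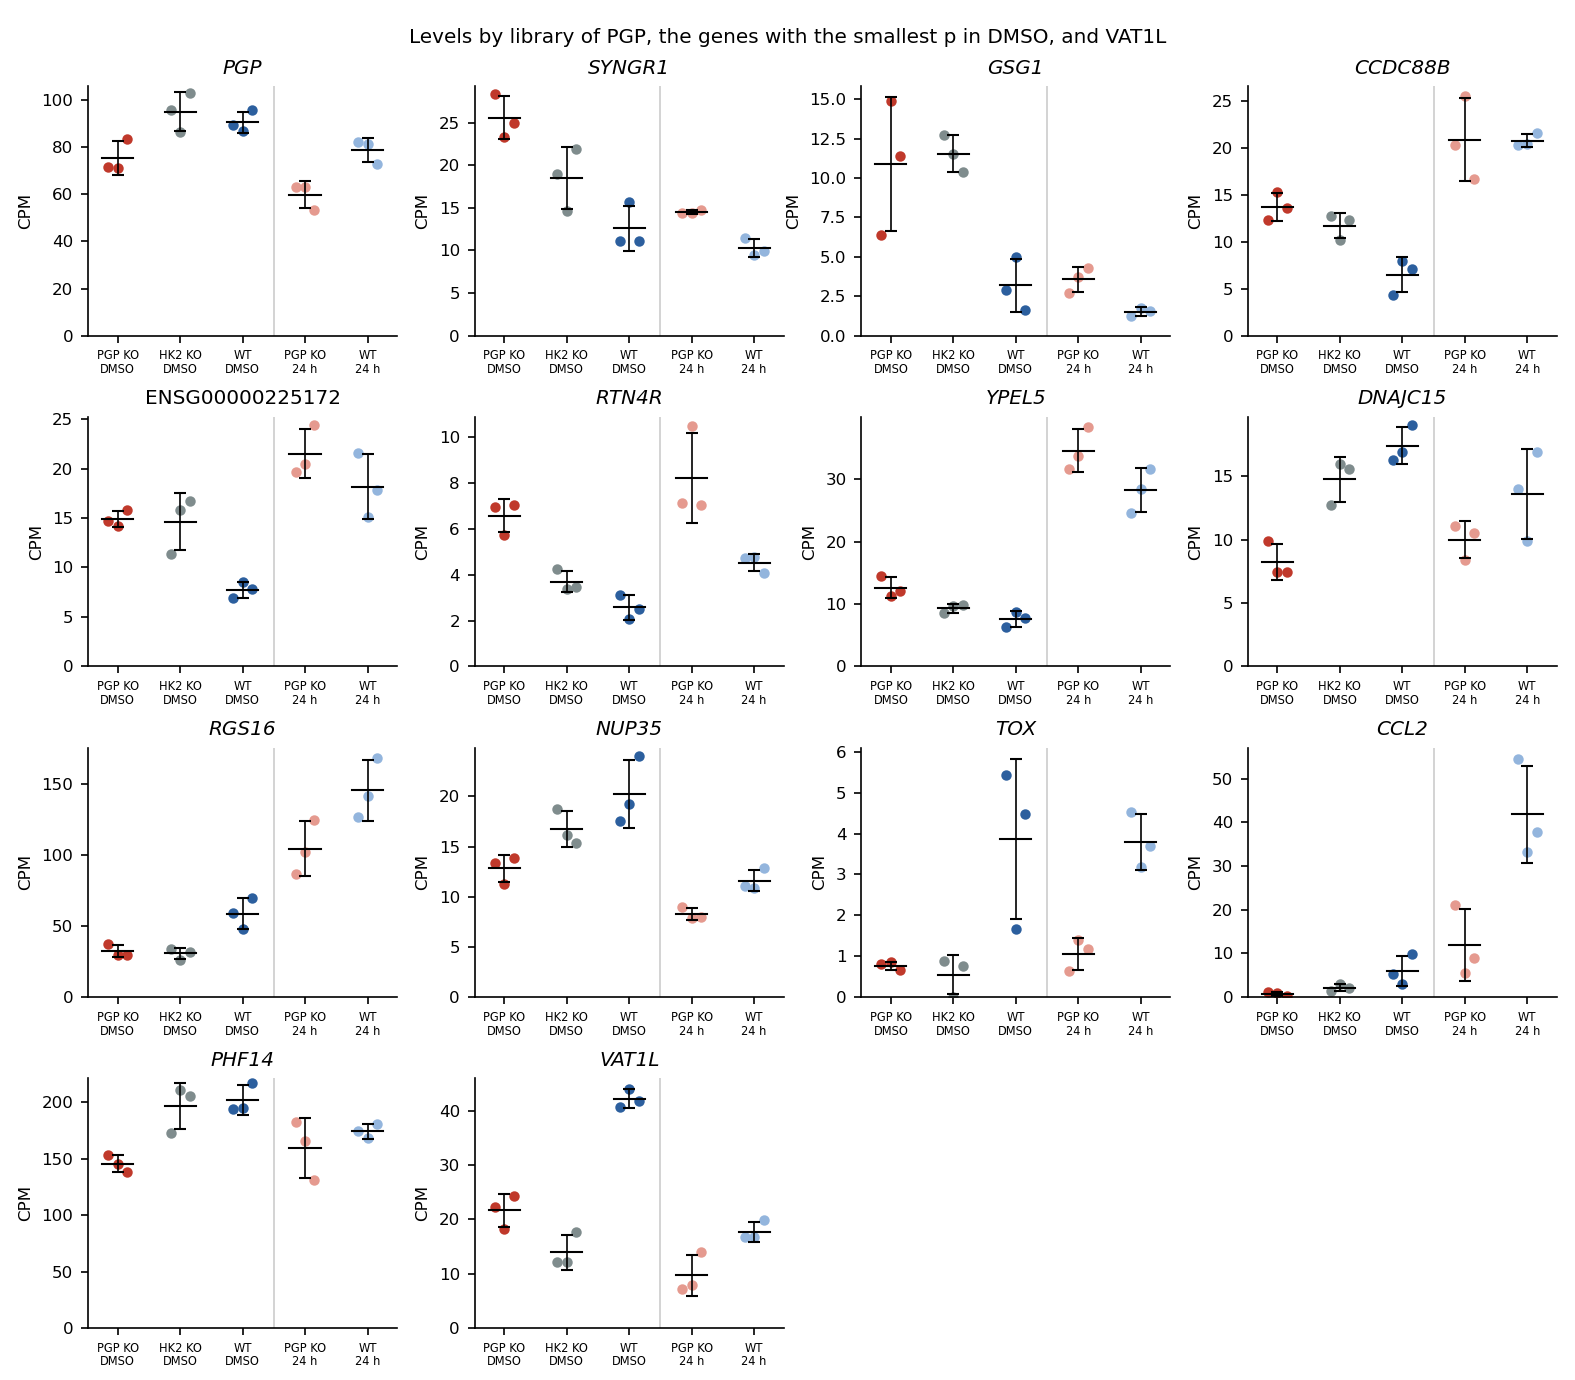
Levels in CPM (vertical axes, linear from 0) of PGP, the 12 genes with the smallest p in DMSO and VAT1L, in 5 groups along the horizontal axes. Points are single libraries, horizontal lines the mean and bars the SD of 3 libraries; left of the grey line are the DMSO groups and right of it the groups at 24 h of ironomycin. For PGP, the 12 genes and VAT1L, the PGP knockout and wild type libraries in DMSO stand apart. The 12 genes and VAT1L were chosen on their values in these DMSO libraries.

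VAT1L and the pseudogene GAPDHP1 were called in the fit of the 6 libraries alone and were looked at for that reason, after their values were seen. VAT1L stood at 22.2, 18.3 and 24.4 CPM in the PGP knockout, against 40.7, 44.0 and 41.8 CPM in wild type (-0.97 ± 0.28, edgeR adjusted p = 0.665, and 0.0336 in the fit of the 6 libraries alone). The HK2 knockout was lower still, at 12.1, 12.1 and 17.7 CPM. At 24 h VAT1L was at 7.12, 7.90 and 14.0 CPM in the PGP knockout and at 16.6, 16.7 and 19.8 CPM in wild type, so the groups stood apart there too (-0.86 ± 0.32, edgeR adjusted p = 0.938). GAPDHP1 had 1, 1 and 4 counts in the PGP knockout libraries and 229, 122 and 226 counts in wild type (edgeR adjusted p = 9.73e-07 in the fit of the 6 libraries alone, 0.592 over all libraries). It was not steady within other groups: wild type libraries at 6 h of ironomycin held 0, 405 and 108 counts, and PGP knockout libraries at 24 h held 0, 250 and 1. GAPDHP1 shares sequence with GAPDH, so its counts are uncertain. GAPDH itself, a highly expressed glycolytic enzyme, averaged only 6.11 CPM in the PGP knockout and 9.79 CPM in wild type, and its counts are uncertain for the same reason.

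The same genotype difference could be read in the libraries at 24 h of ironomycin. Their levels do not enter the DMSO difference, but all libraries share the filter and the estimate of spread. There 6 of 11610 genes were called (0.0517%, edgeR adjusted p under 0.05), and all 6 had the same sign in DMSO, where none was called. ZNF85, a zinc finger repressor, was at 2.93, 2.79 and 2.53 CPM in the PGP knockout and at 0.41, 0.40 and 0.39 CPM in wild type at 24 h (2.71 ± 0.48, edgeR adjusted p = 0.0236). In DMSO it stood at 4.01, 5.10 and 3.29 CPM in the PGP knockout, against 1.46, 2.09 and 1.16 CPM in wild type (1.41 ± 0.36, edgeR adjusted p = 0.592). The ZNF85 groups did not overlap under either treatment. The wild type values at 24 h lay below the floor of 3 counts, so the size there is uncertain, and the call was lost with DESeq2 (adjusted p = 0.104), with the 6 libraries at 24 h alone (edgeR adjusted p = 0.11) and without any 1 of those 6 (edgeR adjusted p = 0.061 to 0.229). FGL2, a fibrinogen-like protein of macrophages, was higher in the PGP knockout at 24 h (1.53 ± 0.27, edgeR adjusted p = 0.0236) and had 24.1, 16.8 and 15.6 CPM in the PGP knockout in DMSO, against 11.9, 6.68 and 9.12 CPM in wild type (1.02 ± 0.28). PLAC8, a small cysteine-rich protein of myeloid cells, differed by 0.86 ± 0.14 at 24 h (edgeR adjusted p = 0.0101) and by 0.31 ± 0.13 in DMSO. CHI3L1, a chitinase-like protein secreted by macrophages, was called lower in the PGP knockout than in wild type at 24 h (-1.51 ± 0.22, edgeR adjusted p = 0.00723) and was at 229, 281 and 291 CPM in the PGP knockout in DMSO, against 434, 317 and 545 CPM in wild type (-0.69 ± 0.22). CADM1, a cell adhesion molecule, and IGF1, a growth factor, were called lower at 24 h (-1.01 ± 0.16 and -1.07 ± 0.19, both adjusted), and stood at -0.40 ± 0.20 and -0.57 ± 0.19 in DMSO. In DMSO the libraries stood apart for 5 of the 6, CADM1 being the exception, where 6.43% of all genes stood apart upward and 6.68% downward. The count of calls at 24 h was 0 without wild type replicate 3 or without PGP knockout replicate 1 of that time, 1 without wild type replicate 2, and 3 without PGP knockout replicate 3.

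Going the other way, all 12 genes named above had the same sign at 24 h, CCDC88B only nominally, at 0.00. Of the 12, 7 again had libraries that did not overlap: SYNGR1, GSG1, RTN4R, RGS16, NUP35, TOX and CCL2. Over all genes the PGP knockout libraries at 24 h lay above all wild type ones for 607 (5.23%) and below them for 498 (4.29%). SYNGR1 was at 14.5, 14.4 and 14.8 CPM in the PGP knockout at 24 h, against 11.5, 9.52 and 9.91 CPM in wild type (0.50 ± 0.21). CCL2 was at 21.2, 5.58 and 8.96 CPM in the PGP knockout and at 54.4, 33.1 and 37.9 CPM in wild type (-1.80 ± 0.43). The CCDC88B groups overlapped there: it averaged 20.9 CPM in the PGP knockout and 20.8 CPM in wild type at 24 h (0.00 ± 0.20). The 12 were chosen on their DMSO values, so their smaller size at 24 h, seen for all 12, is no result. The difference between the 24 h and the DMSO comparison was tested directly and gave 0 calls (0%, edgeR), with 221 genes under an unadjusted p of 0.05 and 0 calls by DESeq2. Over all genes, 60.1% had the same sign in both comparisons, with Pearson's r of 0.203 and Spearman's rho of 0.253 across 11610 genes, which are not independent of one another. Among the 648 genes with an unadjusted p under 0.05 in DMSO, 78.4% had the same sign at 24 h. Same-numbered PGP knockout libraries in DMSO and at 24 h deviated from their group means together (r = 0.243, 0.164 and 0.247 across genes), and wild type ones less evenly (0.166, 0.0504 and 0.236), so the sets share no library but may not be fully separate.

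**Figure D2:**
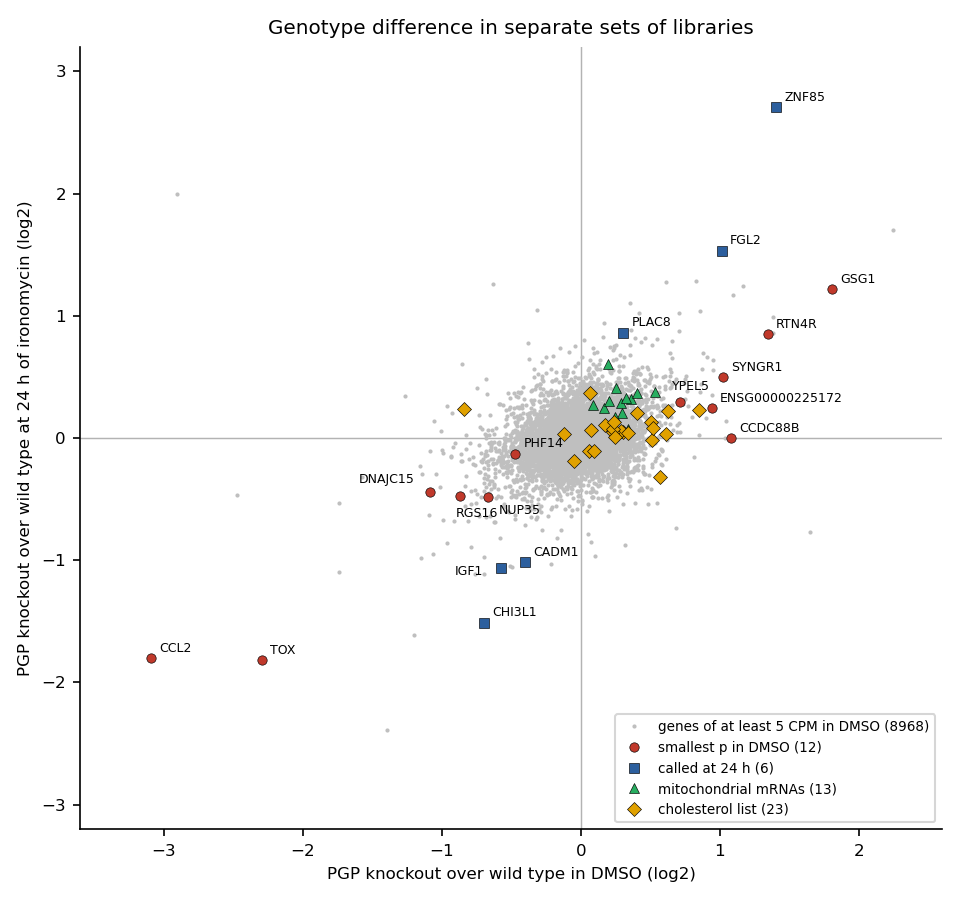
Log2 difference of PGP knockout over wild type in DMSO (horizontal) and at 24 h of ironomycin (vertical), 1 point per gene. Grey points are the 8968 genes of at least 5 CPM in the 6 DMSO libraries, of which 4 lie outside the axes. Coloured symbols mark the 12 genes with the smallest p in DMSO, the 6 genes called at 24 h, the 13 mitochondrial mRNAs and the 23 tested genes of the cholesterol list; all 6 squares and all 12 circles lie in the quadrants of equal sign.

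The HK2 knockout was used to see which differences the PGP knockout had from a second edited line. Between the PGP knockout and the HK2 knockout in DMSO, 0 of 11610 genes were called (0%, edgeR), with 1127 under an unadjusted p of 0.05 and 0 calls by DESeq2. The count was 140 with these 6 libraries alone and 141 without the filter on low counts. HK2 itself was at 24.8, 21.2 and 19.99 CPM in the HK2 knockout, below all PGP knockout and wild type libraries in DMSO. This comparison shares the PGP knockout libraries with the one above, and HK2 knockout against wild type shares the wild type libraries, so values are given side by side only. GSG1 was at 12.7, 11.5 and 10.4 CPM in the HK2 knockout, close to the PGP knockout, and HK2 knockout over wild type gave 1.87. RGS16 and TOX gave -0.94 and -2.84 for HK2 knockout over wild type, beside -0.87 and -2.30 for the PGP knockout. ENSG00000225172 gave 0.92 and CCDC88B 0.84. Of the genes called at 24 h, FGL2, PLAC8, CHI3L1, CADM1 and IGF1 gave 1.49, 0.54, -0.93, -0.67 and -0.34 for HK2 knockout over wild type in DMSO, beside 1.02, 0.31, -0.69, -0.40 and -0.57 for the PGP knockout. ZNF85 gave 0.21, beside 1.41 for the PGP knockout. DNAJC15 and PHF14 had smaller differences in the HK2 knockout, with -0.24 and -0.04 over wild type, beside -1.09 and -0.47 for the PGP knockout. DNAJC15 was at 12.7, 15.96 and 15.6 CPM in the HK2 knockout, above all PGP knockout libraries but below all wild type libraries in DMSO. For DNAJC15, PGP knockout over HK2 knockout was -0.85 ± 0.23. RTN4R was also higher in the PGP knockout than in the HK2 knockout (0.83 ± 0.30), where its 3 libraries held 4.24, 3.40 and 3.46 CPM. Those HK2 knockout libraries lay above all wild type libraries in DMSO, and HK2 knockout over wild type gave 0.52. SYNGR1, CCL2, YPEL5 and NUP35 gave 0.55, -1.45, 0.29 and -0.28 for HK2 knockout over wild type, each with the sign seen in the PGP knockout.

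None of the 39 gene lists, nor the genes beside PGP, held a called gene in DMSO. Medians over the tested members lay between -0.34 and 0.29, against 0.01 over all genes. The mitochondrially encoded mRNAs and the genes of cholesterol synthesis and uptake had the highest medians. The lowest was that of the 4 tested B-lymphoid markers, of which 1 was higher (0.546) and 3 lower. PAX5, EBF1 and CD38 were sparse, with 10, 15 and 18 counts over the PGP knockout libraries in DMSO and 22, 26 and 24 over wild type. The median was 0.55 in the fit of the 6 libraries alone, near the value of the 1 higher member. That fit filtered low counts in those libraries only, so the medians may cover different members and their signs cannot be compared. Lists and their members were chosen with earlier results in view, and no list was tested as a set.

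**Figure D3:**
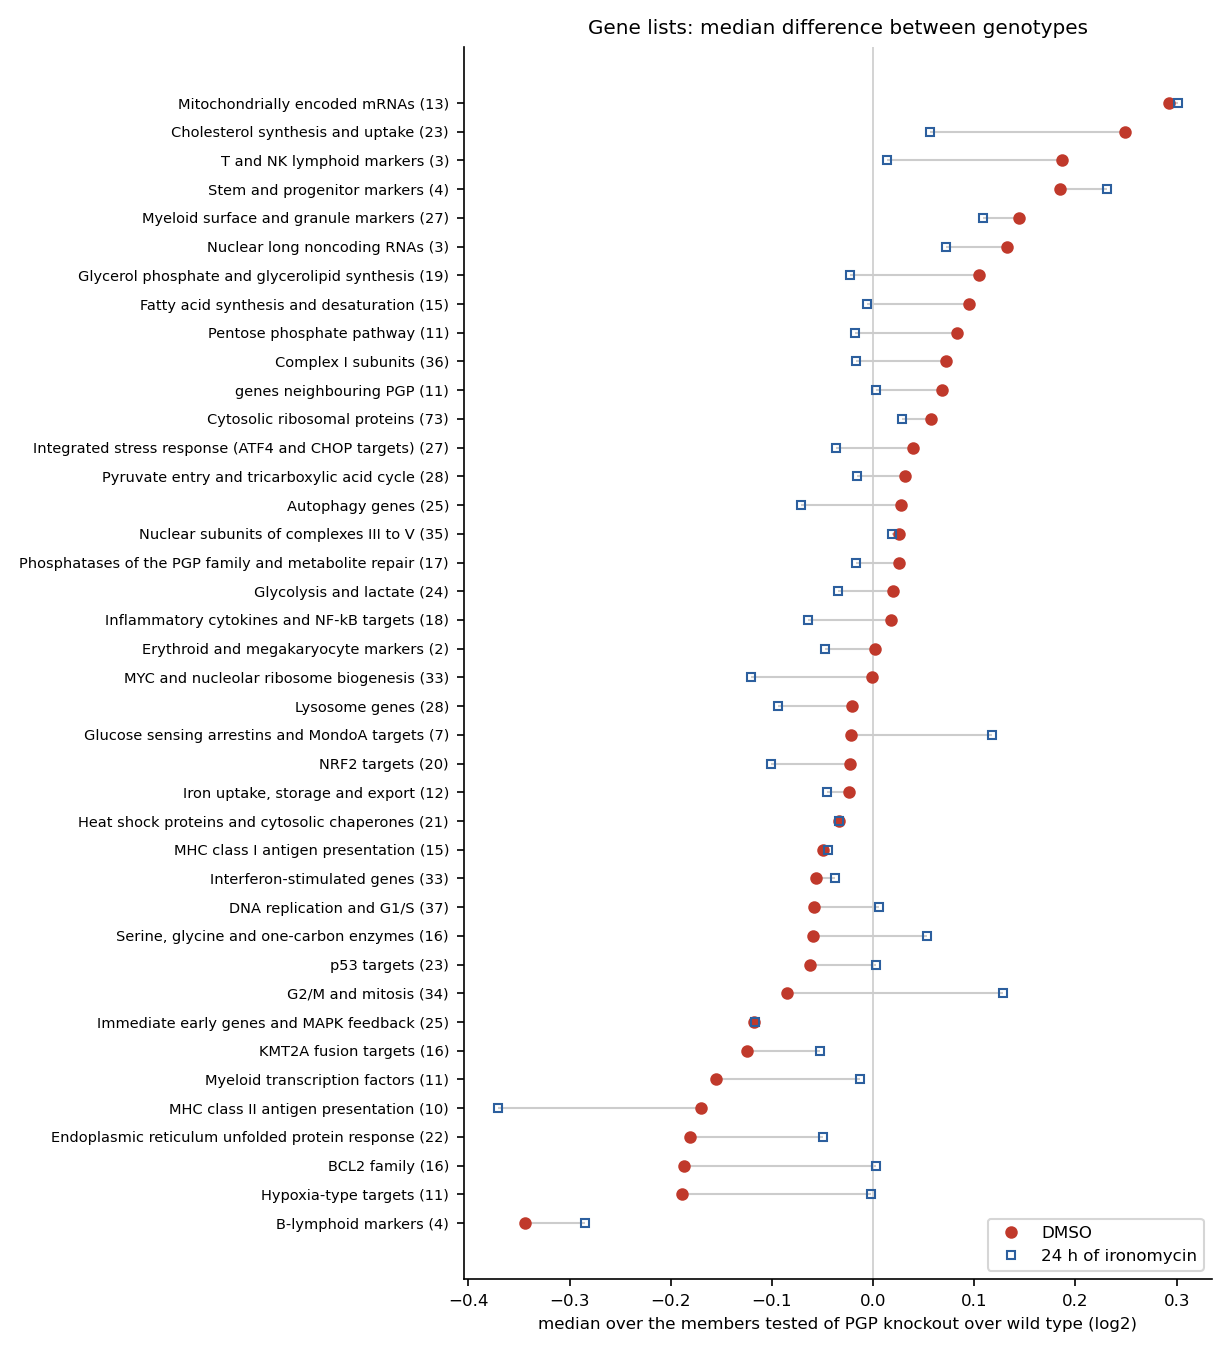
Median log2 difference of PGP knockout over wild type (horizontal axis) over the tested members of each list (rows, with the number tested), in DMSO (filled circles) and at 24 h of ironomycin (open squares). The mitochondrial mRNAs lie near 0.29 in DMSO and 0.30 at 24 h, while the cholesterol list lies at 0.25 in DMSO and 0.06 at 24 h.

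Genes of cholesterol synthesis and uptake tended to higher values in the PGP knockout. Cells make cholesterol from acetyl-CoA through mevalonate and squalene, and SREBP transcription factors, often together with the CCAAT-binding factor NF-Y, raise the whole pathway when sterols are low. Of 25 genes 23 were tested: 20 had a higher value in the PGP knockout, 9 of them with an unadjusted p under 0.05, against 3.04% of all genes, and 0 were lower at that level. The median difference was 0.25, and it lay between 0.21 and 0.35 when any 1 of the 6 libraries was left out. Promoter sequence is shown for the members with an unadjusted p under 0.05 whose window held at least 3 matches to CCAAT, to show how these letters are placed. Windows run from 250 bases before the start to 50 after it, from RefSeq on GRCh38.p14, given 5′ to 3′ on the gene's strand. Capitals mark CCAAT or its reverse complement ATTGG, and in NSDHL a pair of matches overlaps.
NSDHL, chrX:152830813-152831112 (plus strand): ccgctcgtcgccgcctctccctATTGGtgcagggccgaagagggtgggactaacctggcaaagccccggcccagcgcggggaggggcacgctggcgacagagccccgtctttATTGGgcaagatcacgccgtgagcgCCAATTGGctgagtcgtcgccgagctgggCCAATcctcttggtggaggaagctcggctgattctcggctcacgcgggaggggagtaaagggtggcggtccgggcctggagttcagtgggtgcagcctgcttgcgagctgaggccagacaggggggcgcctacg
FDPS, chr1:155308616-155308915 (plus strand): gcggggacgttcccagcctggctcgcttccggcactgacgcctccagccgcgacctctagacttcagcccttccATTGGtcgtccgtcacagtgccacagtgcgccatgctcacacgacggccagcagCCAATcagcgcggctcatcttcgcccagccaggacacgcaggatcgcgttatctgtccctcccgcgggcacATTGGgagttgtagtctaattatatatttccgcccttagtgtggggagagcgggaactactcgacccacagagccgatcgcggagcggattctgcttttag
EBP, chrX:48521558-48521857 (plus strand): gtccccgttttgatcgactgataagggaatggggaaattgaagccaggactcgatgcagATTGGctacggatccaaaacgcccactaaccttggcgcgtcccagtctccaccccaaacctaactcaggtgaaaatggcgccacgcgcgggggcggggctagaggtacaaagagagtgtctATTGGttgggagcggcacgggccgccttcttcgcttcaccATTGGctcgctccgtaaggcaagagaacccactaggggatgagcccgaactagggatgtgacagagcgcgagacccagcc
Promoters were at hand for 17 of the 23 tested members, and 16 of those (94.1%) held CCAAT on either strand, against 43.8% of the 8699 tested genes with a promoter at hand. At least 3 matches were found in 7 of the 17 (41.2%), against 6.21% of those tested genes. Among these, MVK, MSMO1, MVD and IDI1 had an unadjusted p above 0.05 and are not shown. LSS and TM7SF2, with a smaller p than any member shown, held 1 match each. Whether the number of matches goes with the difference was not tested. The letters TCACNCCAC, a form of the sterol regulatory element, were found on either strand in SREBF2 alone among the 17 (5.88%, against 1.37% of those tested genes), starting 133 bases before the start. A match is a description of the sequence and not a bound site, and a window without one says nothing about SREBP.

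Within the pathway the members with small p spread from the farnesyl step to the last steps. FDPS, which makes farnesyl diphosphate, had 6.96, 15.5 and 6.36 CPM in the PGP knockout libraries, against 6.06, 4.38 and 5.64 CPM in wild type (0.85 ± 0.35). The groups did not overlap, but the size rests on PGP knockout replicate 2. FDFT1, the squalene synthase, was at 232, 188 and 209 CPM in the PGP knockout and at 170.0, 164 and 174 CPM in wild type (0.31 ± 0.12). SQLE, the rate-limiting squalene epoxidase, was at 106, 73.3 and 71.8 CPM in the PGP knockout and at 61.8, 57.2 and 57.1 CPM in wild type (0.51 ± 0.16, edgeR adjusted p = 0.686, the smallest of the list). For both enzymes all 3 PGP knockout libraries lay above wild type, with replicate 1 the highest. LSS, which closes the sterol ring, differed by 0.61 ± 0.21, NSDHL, a sterol dehydrogenase, by 0.40 ± 0.16, and EBP, a sterol isomerase, by 0.23 ± 0.11, all without overlap. HMGCS1 (0.08 ± 0.27) and IDI1 (-0.05 ± 0.38), enzymes of the mevalonate steps, and INSIG1 (0.09 ± 0.26), which holds SREBP back, were near 0. Not all mevalonate enzymes were: MVK gave 0.51, MVD 0.18 and PMVK 0.06, each with an edgeR unadjusted p above 0.05. Members other than FDFT1, one of the most abundant, were singled out after their values were seen. At 24 h the list's median was 0.06 and 18 of 23 values were positive, and HK2 knockout over wild type in DMSO gave a median of 0.31.

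All 13 mRNAs of the mitochondrial chromosome had higher values in the PGP knockout, as had 51% of all genes. The 13 mRNAs encode core subunits of the respiratory chain and of ATP synthase. Their median difference was 0.29 in DMSO and 0.30 at 24 h, where all 13 were positive again, and HK2 knockout over wild type gave 0.16 in DMSO. The DMSO median was 0.19 without PGP knockout replicate 2 and 0.42 without wild type replicate 3. MT-CO3, a subunit of cytochrome c oxidase and the most abundant, was at 12830, 18050 and 15720 CPM in the PGP knockout libraries, against 9762, 10710 and 14760 CPM in wild type (0.40 ± 0.21). MT-ND3, a subunit of complex I, differed by 0.09 ± 0.20. MT-ATP6, a subunit of ATP synthase, was at 9206, 11090 and 11200 CPM in the PGP knockout and at 6256, 6685 and 8784 CPM in wild type (0.54 ± 0.20, edgeR adjusted p = 0.850). Only MT-ATP6 and MT-ND5 had groups that did not overlap, where 6.43% of all genes stood apart upward. For most of the others wild type replicate 3 lay above the lowest PGP knockout library. At an unadjusted p under 0.05, 3 of the 13 were higher, against 3.04% of all genes. Together the 13 took 6.04%, 7.74% and 6.92% of counts in the PGP knockout and 5.01%, 5.26% and 6.89% in wild type, and an exact two-sided permutation test gave p = 0.2, where 3 against 3 libraries cannot go below 0.1. The difference of 1.18 percentage points lay between 0.76 and 1.76 when any 1 of the 6 libraries was left out. These transcripts come from 1 precursor per strand and so are not independent of one another, and values of MT-ND6, MT-ATP6 and MT-ATP8, which overlap other transcripts, are uncertain. Nuclear genes of the respiratory chain had medians near that of all genes, 0.07 for 36 tested subunits of complex I and 0.03 for 35 of complexes III to V.

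**Figure D4:**
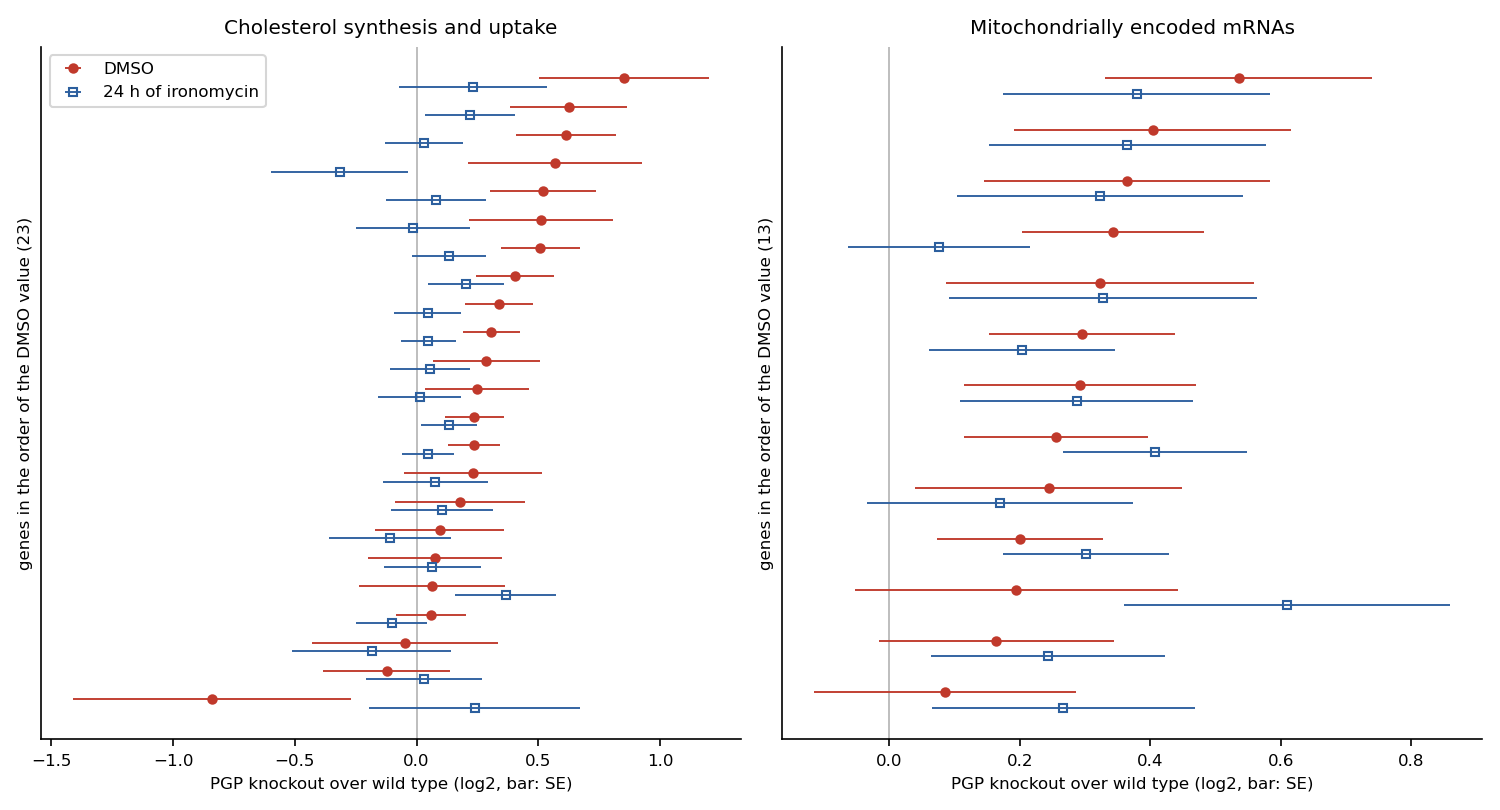
Log2 difference of PGP knockout over wild type (horizontal axes, bars are SE) for the 23 tested genes of the cholesterol list (left) and the 13 mitochondrial mRNAs (right), 1 row per gene in the order of the DMSO values, in DMSO (filled circles) and at 24 h of ironomycin (open squares). In DMSO 20 of 23 and 13 of 13 values lie above 0; at 24 h the cholesterol values gather near 0 while all 13 mitochondrial ones lie above it.

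Pathways next to the substrates of PGP stayed close to the median of all genes. Glycolysis and lactate genes, 24 tested, had a median of 0.02. At an unadjusted p under 0.05, 0 genes were higher and 1 lower, against 3.04% and 2.54% of all genes. The lower one was GAPDH. ENO1, the enolase, stood at 2505, 3060 and 3268 CPM in the PGP knockout, against 2647, 2816 and 2646 CPM in wild type (0.12 ± 0.13), and LDHA, which makes lactate, differed by 0.04 ± 0.16. TPI1 and PKM, enzymes near the metabolites that PGP clears, differed by 0.12 ± 0.11 and 0.26 ± 0.16. TIGAR, a phosphatase that lowers glycolytic flux, averaged 12.96 CPM in the PGP knockout and 20.3 CPM in wild type (-0.65 ± 0.35), without overlap in DMSO or at 24 h (-0.64). It was not among the most abundant genes of its list. Over all genes 6.68% stood apart downward in DMSO and 4.29% at 24 h. In the pentose phosphate pathway 11 of 11 genes were tested, with a median of 0.08. At an unadjusted p under 0.05, 1 was higher and 1 lower, against the same shares of all genes. The lower one was RPE, an epimerase of that pathway (-0.52 ± 0.22), whose groups overlapped. PGD, the enzyme that phosphoerythronate inhibits, differed by 0.09 ± 0.11. For TALDO1 and TKT, the most abundant of that list, the differences were 0.13 ± 0.10 and 0.20 ± 0.14. Genes of glycerol phosphate and glycerolipid synthesis had a median of 0.10 over 19 tested, with 0 under an unadjusted p of 0.05, and AGPAT5 and AGPAT3, acyltransferases of that route, gave -0.20 ± 0.12 and 0.11 ± 0.13. Other phosphatases and metabolite repair enzymes, 17 tested with PGP included, had a median of 0.03, and the most abundant, GLO1 and NAXE, gave -0.04 ± 0.11 and 0.08 ± 0.12.

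Genes of the endoplasmic reticulum's unfolded protein response leaned to lower values, 16 of 22, with a median of -0.18. HSP90B1, a chaperone of that compartment, was at 834, 722 and 667 CPM in the PGP knockout, against 949.9, 972 and 964 CPM in wild type (-0.38 ± 0.18), and MANF gave -0.44 ± 0.23, both without overlap; MANF was picked after its values were seen. HSPA5, the most abundant member, did not follow, with 945, 1415 and 1307 CPM in the PGP knockout and 1239, 1360.0 and 1203 CPM in wild type (-0.05 ± 0.17). The median was -0.25 without PGP knockout replicate 1 and -0.05 at 24 h. Genes of MHC class II presentation had a median of -0.17 over 10 tested in DMSO and -0.37 at 24 h, where all 10 were negative. In DMSO that rested on wild type replicate 1, in which CD74, the invariant chain, stood at 298 CPM against 178 CPM in each of the other two, beside 212, 216 and 186 CPM in the PGP knockout. HLA-DRA, an alpha chain, showed the same, with 151 CPM in wild type replicate 1 against 56.4 and 74.2 CPM in the other two (-0.14 ± 0.35). Without that library the median was 0.10.

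Myeloid surface and granule markers had a median of 0.14 over 27 of 36 tested, and their counts summed to 0.179% ± 0.00575 of each library in the PGP knockout and 0.183% ± 0.0205 in wild type (SD, exact permutation p = 0.9). CTSG, the granule protease cathepsin G, was at 120.1, 124 and 129.7 CPM in the PGP knockout, against 93.6, 118 and 82.6 CPM in wild type (0.35 ± 0.12), and it was higher without overlap at 24 h as well (0.43). MNDA, a nuclear antigen of myeloid differentiation, was at 6.69, 9.35 and 9.88 CPM in the PGP knockout and at 14.0, 14.2 and 14.1 CPM in wild type (-0.70 ± 0.28). Both were singled out after their values were seen. Of 11 tested myeloid transcription factors 8 had lower values, with a median of -0.16. At an unadjusted p under 0.05, 1 was lower, against 2.54% of all genes, namely CEBPB (-0.56 ± 0.26). RARA and IRF8, picked after their values were seen, gave -0.61 ± 0.38 and -0.58 ± 0.39, and the groups overlapped for all 3 genes. MYB and ZEB2, the most abundant of that list, gave 0.12 ± 0.10 and 0.05 ± 0.13. Among targets of KMT2A fusions, the cell cycle kinase CDK6, the most abundant, gave -0.14 ± 0.13. MEF2C, a transcription factor picked from that list after its values were seen, was at 197, 172 and 169.9 CPM in the PGP knockout and at 234, 198 and 233 CPM in wild type (-0.30 ± 0.11). T cell and NK cell markers, erythroid and megakaryocyte markers and stem cell markers summed to 0.0204%, 8.72e-04% and 0.0535% of counts in the PGP knockout and 0.0194%, 8.62e-04% and 0.0426% in wild type. HBA1 and CD3G were at 0. In the list of iron uptake, storage and export, which bears on ironomycin, 0 of 12 tested genes had an unadjusted p under 0.05, against 5.58% of all genes. TFRC, which imports iron, averaged 477.6 CPM in the PGP knockout and 457.7 CPM in wild type (0.06 ± 0.16). FTL, a ferritin chain, averaged 4311 CPM in the PGP knockout and 4068 CPM in wild type (0.08 ± 0.10).

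A broad gradient with base composition ran through the DMSO comparison. Ordered by the GC content of the last 300 bases of the transcript, the median difference was -0.09 in the fifth of genes with the lowest GC and 0.11 in the fifth with the highest, with -0.05, 0.01 and 0.06 between them. At 24 h the corresponding medians lay between -0.01 and 0.02. PGP knockout over HK2 knockout in DMSO gave -0.12 in the fifth with the lowest GC and 0.17 in that with the highest. With GC fitted out in each library, 0 genes were called, the cholesterol median was 0.29, the mitochondrial median 0.26 and PGP gave -0.37.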

How the data were processed

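Libraries of 3′ transcript ends were made from total RNA with the Lexogen QuantSeq kit, per the labels' protocols. Per the submitters' processing notes, bcl2fastq 2.20.0.422, HISAT2, HTSeq and the build hg19 were used, and the strand setting is not given in the sources used here, which leaves antisense and overlapping genes uncertain. The authors deposited raw counts for each Ensembl gene, not normalized. Of 54042 genes 51661 matched a symbol in the reference tables. Coordinates are given for RefSeq promoters only, on GRCh38.p14, and RefSeq order alone gave the neighbours of PGP.

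Counts of all 21 libraries were fitted together in edgeR 4.0.16, run in R 4.3.3 beside limma 3.58.1, using TMM factors, a filter on low counts (minimum 10, total 15), a mean per group and the quasi-likelihood test, and a gene was called where its Benjamini-Hochberg value over 11610 genes was under 0.05. DESeq2 1.42.0 was an alternative. CPM are counts divided by the TMM-scaled library size. The pipeline was tested on simulated data. No column of the table was without a sample. Python 3.11.15 with numpy 2.4.6 and pandas 2.3.3 made the tables, and matplotlib 3.10.9 the figures.

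The comparison, its lists and its tests were chosen with earlier results of these data known. Named genes followed a rule: PGP, PDXP and HK2; then called genes, or where there were none the 6 smallest p in each direction; and, in each list described, the 2 members with the highest mean. Others named are said to be chosen after their values were seen, or stand for a step of their pathway; a few items are not reported here.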

Additional observations from a re-analysis of the deposited data

Results flagged for a closer look

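TFR2, transferrin receptor 2, was picked out because its genotype difference pointed in opposite directions under the 2 treatments, with no overlap in either. It stood at 3.48, 3.40 and 5.27 CPM in the PGP knockout in DMSO, against 3.34, 3.34 and 3.15 CPM in wild type. At 24 h of ironomycin it stood at 3.35, 2.79 and 2.14 CPM in the PGP knockout, against 3.90, 4.17 and 3.499 CPM in wild type. The difference at 24 h minus that in DMSO was -0.79 ± 0.41 on the log2 scale (edgeR adjusted p = 1.0), so it did not pass the test. It was the 1 gene with such a pattern among the named genes and list members. The share of all genes with this pattern was not counted. Over all genes, 6.43% stood apart upward in DMSO and 4.29% downward at 24 h. In DMSO the gap for TFR2 was small, with 3.40 CPM in the lowest PGP knockout library against 3.34 CPM in wild type.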

How the results depend on the processing

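Calls for the basal comparison numbered 0 with RLE factors, a replicate block, a GC offset, or any 1 of its 6 libraries left out. They also numbered 0 without wild type replicate 2 at 6 h of ironomycin. The other libraries of the joint fit were not left out in turn for this comparison. They numbered 96 without a filter on low counts, 5 with DESeq2, 5 with the DMSO libraries only, 2 with the groups compared alone and 85 when a replicate block was added to that fit, which with the GC offset was chosen after the data were seen. Of the 12 named genes, YPEL5 and NUP35 missed the threshold in that last fit, and TOX was not tested in it. Same-numbered PGP knockout and wild type libraries in DMSO deviated together at r = 0.0929, 0.0835 and 0.0949, none over 0.1, so they were not treated as pairs. Every library correlated best with its own number, and libraries of different number gave r between -0.0887 and -0.00988, a hint of pairing. The sample numbers in the column headers also run in blocks by replicate number across all groups. What those blocks stand for is not stated, so pairing remains possible. At 24 h the 6 calls became 48 without the filter, 11 with a replicate block and 3 with the groups alone, and 0 to 8 with 1 library left out. Of the 6, only CHI3L1 and CADM1 were among the calls with the groups alone. The difference between times gave 18 calls without the filter, 1 with the groups alone and 0 with any library of the groups compared left out. PGP knockout against HK2 knockout gave 141 and 140 under the same settings, and 0 to 2 with 1 library left out. The median of the genes beside PGP was -0.0226 with the GC offset and 0.0201 to 0.0993 with 1 library left out. The cholesterol and mitochondrial medians moved by less than 1 SD between replicates under these settings, but 32 values of medians of other lists moved by more. The summed share of the mitochondrial mRNAs also moved by less than 1 SD with any library left out. It was not recomputed under the other settings, and the shares of other lists were not recomputed at all. The sign of each of the 12 named genes, PGP and HK2 held in every setting run, while medians of several lists, most of them near 0, changed sign. The cause of these shifts was not tested. Depth limits genes under about 5 CPM, such as TOX and CCL2, and 3 libraries per group limit all.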
